A study of Homo sapiens with 6 samples.

Results

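The Hippo pathway and YAP target genes described here are 10 genes taken by name from the deposited count table of AsPC-1 cells: the coactivator genes YAP1 and WWTR1, the DNA-binding partner genes TEAD1 and TEAD4, the kinase genes LATS1 and LATS2, and the target or adaptor genes NUAK2, AMOTL2, AJUBA and ANKRD1. All 10 were found among the 20263 genes of the table, and all 10 were among the 13769 genes that passed the filter on low counts and were tested. AsPC-1 is an established human pancreatic adenocarcinoma line. The cells received HMOX1si1 or HMOX1si2, which are separate siRNAs against the heme oxygenase gene HMOX1, or the negative control siRNA (siControl), each with jetPRIME reagent, and each group held 2 libraries. All groups thus share the parental line and the transfection, the study used 1 line, and the time between transfection and harvest is not given in the sources used here. No label says that the 2 libraries of a group came from separate cultures. A p-value here therefore reflects the scatter of these particular libraries alone, and that scatter may be technical.

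In the Hippo pathway, the STE20-type kinases MST1 and MST2 and their scaffold SAV1 activate LATS1 and LATS2, which act with MOB1. LATS kinases phosphorylate YAP and its relative TAZ (the product of WWTR1), which are then held in the cytoplasm or degraded. When this brake is released, YAP and TAZ enter the nucleus and bind TEAD factors, which recognise the DNA letters GGAATG. Several targets of that complex are themselves restraints on it, among them LATS2 and AMOTL2, so that the transcripts form a feedback loop. Most of the control of YAP and TAZ is exerted on the proteins, which were not measured here.

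The libraries held 36144330 to 45068660 counts. HMOX1 was at 2.43 and 2.80 CPM (counts scaled to the TMM-adjusted library size) with HMOX1si1 and at 1.27 and 1.17 CPM with HMOX1si2, against 9.06 and 8.52 CPM in siControl libraries, and it fell with each siRNA (edgeR adjusted p of 0.00618 and 0.00951). All 6 epithelial markers checked were detected, with summed levels of 8717 to 14284 CPM over the 6 libraries. The sum was lower in both HMOX1si1 libraries than in the other 4, and most of it was KRT8, KRT18 and KRT19. CDH1 went the other way, at 111 and 98.5 CPM with HMOX1si1 and 142 and 111 CPM with HMOX1si2, against 91.0 and 74.9 CPM with siControl. EPCAM was at 651 and 649.9 CPM with HMOX1si1, against 663 and 686 CPM with siControl. PTPRC, which marks blood cells, COL1A2 and COL3A1 of fibroblasts and CDH5 of endothelium did not pass the filter on low counts. The other markers checked of these 3 cell types passed it. The summed level of 3 endothelial markers was 0.55 to 0.811 CPM with HMOX1si1 and 0.691 to 1.37 CPM with HMOX1si2, against 1.17 to 1.66 CPM in siControl libraries. The summed level of 6 fibroblast markers was 91.2 and 95.4 CPM with HMOX1si1 and 79.0 to 87.0 CPM with HMOX1si2, against 119 to 125 CPM in siControl libraries, nearly all of it LUM. That of 3 blood markers was 171 to 201 CPM with HMOX1si1 and 121 to 152 CPM with HMOX1si2, against 126 to 146 CPM in siControl libraries, nearly all of it CD68 and LYZ. In bulk RNA a change in the share of cells and a change in RNA per cell cannot be told apart.

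The first comparison asks which of these transcripts changed when HMOX1 was knocked down, with equal weight on both siRNAs. LATS2 and TEAD4 rose and NUAK2 fell, and the other 7 genes were not called. Tested with edgeR's quasi-likelihood method, and Benjamini-Hochberg adjustment over all genes, 3 of 10 were thus called at an adjusted p under 0.05, where 10.1% of all genes tested were. With HMOX1si1 alone 2 of 10 were called (LATS2 and YAP1, both higher), against 10.0% of all genes. With HMOX1si2 alone 2 of 10 were called (LATS2 higher and NUAK2 lower), against 5.73% of all genes. The median log2 fold change of the 10 was 0.34 with HMOX1si1, 0.26 with HMOX1si2 and 0.27 on average, whereas that of all genes tested was 0.00 in each comparison. In 7 of the 10 all 4 knockdown libraries lay on 1 side of both control libraries, which was true of 36.8% of all genes tested. The 10 genes were chosen with earlier results of these data known. Their shares and medians therefore cannot show that this set changed more than other genes. These comparisons share the same control libraries: without siControl replicate 1 or without replicate 2, edgeR called 0 of all genes on average (3459 and 2562 at an unadjusted p under 0.05, with no other tool run on those subsets), and so 0 of the 10 (6 and 4 at an unadjusted p under 0.05). Leaving out a knockdown library left 0 to 3 of the 10 called on average.

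**Figure D1:**
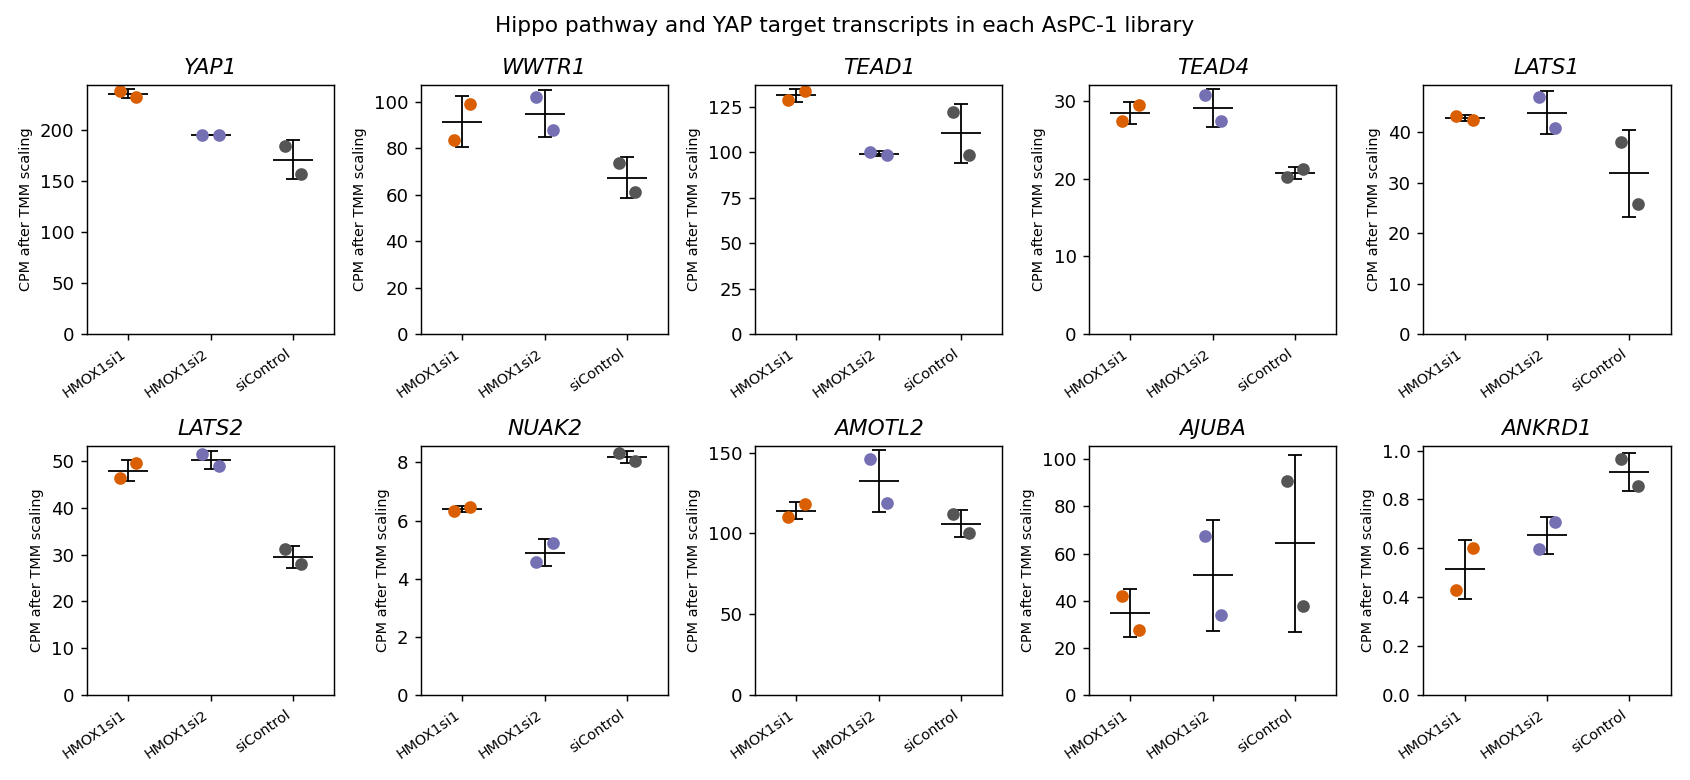
Level of each of the 10 transcripts in CPM after TMM scaling (y axis, from 0) by siRNA group (x axis); points are libraries, and the bar and whiskers are the mean and SD of 2 libraries. The knockdown points of LATS2 and TEAD4 lie above both siControl points, those of NUAK2 and ANKRD1 lie below, and the points of AJUBA are spread widely within each group.

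YAP1 (ENSG00000137693, chromosome 11, plus strand, 102110461 to 102233423 in GRCh38 as annotated by GENCODE 29) encodes the YAP coactivator. It had 238 and 232 CPM with HMOX1si1 and 195 and 195 CPM with HMOX1si2, against 184 and 157 CPM with siControl. The groups did not overlap, and HMOX1si1 gave the highest values. YAP1 rose with HMOX1si1 (log2 fold change 0.46, SE 0.10; edgeR adjusted p = 0.0463). This call was lost in each fit without 1 of the 6 libraries (log2 fold change 0.36 to 0.57, adjusted p 0.0557 to 0.194). With HMOX1si2 the log2 difference was 0.19 (95% interval −0.06 to 0.45, edgeR adjusted p = 0.289).

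WWTR1 (chromosome 3), which encodes TAZ, stood at 83.6 and 99.1 CPM with HMOX1si1 and at 102 and 87.8 CPM with HMOX1si2, against 73.5 and 61.0 CPM with siControl. All knockdown libraries were above both controls. The average log2 difference was 0.47 (95% interval 0.15 to 0.78, edgeR adjusted p = 0.0717), so WWTR1 was not called by edgeR, although DESeq2 called it on average (adjusted p = 0.0131) and with HMOX1si2 (adjusted p = 0.0331). Of both coactivator genes, then, each was higher in all 4 knockdown libraries than in either control, and edgeR made 1 call, for YAP1 with HMOX1si1. DESeq2 also called YAP1 on average (adjusted p = 0.0159).

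TEAD4 (ENSG00000197905, chromosome 12, plus strand, 2959330 to 3040673) encodes a TEAD factor through which YAP and TAZ reach DNA. It had 27.5 and 29.5 CPM with HMOX1si1 and 30.8 and 27.4 CPM with HMOX1si2, against 20.2 and 21.3 CPM with siControl. The knockdown libraries did not overlap the controls, and both siRNAs gave almost the same levels. TEAD4 rose 1.39-fold on average (log2 fold change 0.47, SE 0.10, edgeR adjusted p = 0.0400). With each siRNA alone edgeR did not call it (adjusted p of 0.0551 for HMOX1si1 and 0.0620 for HMOX1si2), whereas DESeq2 did (0.0134 and 0.00948). The call on average was lost in each fit without 1 library except that without HMOX1si2 replicate 2, with log2 fold changes of 0.43 to 0.51 and adjusted p of 0.0747 to 0.172 in the other 5 fits.

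TEAD1 (chromosome 11), the other TEAD gene of the set, was not called against siControl with either siRNA. Its levels were 129 and 134 CPM with HMOX1si1 and 100.1 and 98.3 CPM with HMOX1si2, against 122 and 98.8 CPM with siControl. The HMOX1si2 libraries were below those of HMOX1si1 and lay close to the lower control. The log2 difference was 0.25 with HMOX1si1 (95% interval −0.04 to 0.55, edgeR adjusted p = 0.211) and −0.15 with HMOX1si2 (−0.45 to 0.14, edgeR adjusted p = 0.456). Between HMOX1si2 and HMOX1si1 it was −0.41 (95% interval −0.70 to −0.11, edgeR adjusted p = 0.130, DESeq2 adjusted p = 0.0458).

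Within each library the level of TEAD4 per kb of exon was set against that of TEAD1, which takes out the scaling. The ratio was 0.965 and 0.998 with HMOX1si1 and 1.39 and 1.26 with HMOX1si2, against 0.751 and 0.975 with siControl. TEAD4 thus exceeded TEAD1 per exonic length in the HMOX1si2 libraries and in no other library, although HMOX1si1 replicate 2 was at 0.998. The exonic lengths join all annotated exons (10279 bases for TEAD1 and 2272 for TEAD4). Where the ratio passes 1 therefore depends on the annotation. No test was made of this ratio.

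LATS2 (ENSG00000150457, chromosome 13, minus strand, 20973032 to 21061547) encodes one of the paired kinases that inactivate YAP and TAZ, and is at the same time a YAP target. Its level was 46.3 and 49.5 CPM with HMOX1si1 and 51.5 and 48.9 CPM with HMOX1si2, against 31.2 and 27.9 CPM with siControl. Knockdown and control libraries were far apart relative to the gaps between replicates, and HMOX1si1 and HMOX1si2 overlapped. LATS2 rose 1.62-fold with HMOX1si1 (log2 fold change 0.70, SE 0.10, edgeR adjusted p = 0.0173). Under HMOX1si2 the rise was 1.70-fold (0.76 on the log2 scale, SE 0.10; edgeR adjusted p = 0.0228). By edgeR it was the only gene of the 10 called with each siRNA, whereas DESeq2 called LATS2 and TEAD4 with each. The edgeR call with HMOX1si1 was kept without either HMOX1si2 library and lost in the other 4 fits without 1 library (log2 fold change 0.62 to 0.77, adjusted p 0.057 to 0.115). With HMOX1si2 it was kept only without HMOX1si2 replicate 2 and lost in the other 5 (log2 fold change 0.69 to 0.84, adjusted p 0.0529 to 0.128). The call on average (log2 fold change 0.73, edgeR adjusted p = 0.0141) was kept without HMOX1si1 replicate 1 and without either HMOX1si2 library. It was lost without siControl replicate 1 (log2 fold change 0.81, edgeR adjusted p = 0.0684), without siControl replicate 2 (0.66, 0.115) and without HMOX1si1 replicate 2 (0.71, 0.0541).

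LATS1 (chromosome 6), the partner kinase gene, stood at 43.3 and 42.5 CPM with HMOX1si1 and at 46.9 and 40.9 CPM with HMOX1si2, against 38.0 and 25.8 CPM with siControl. The knockdown libraries were all higher, but the control libraries differed 1.48-fold from each other. The average log2 difference was 0.44 (95% interval 0.04 to 0.85, edgeR adjusted p = 0.136), so LATS1 was not called. The ratio of LATS2 to LATS1 per kb of exon was 1.66 and 1.80 with HMOX1si1 and 1.70 and 1.85 with HMOX1si2, against 1.27 and 1.68 with siControl, where the higher control overlapped the lowest knockdown library.

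NUAK2 (ENSG00000163545, chromosome 1, minus strand, 205302059 to 205321791) encodes a kinase related to AMPK that is a YAP target and can in turn restrain LATS. It was expressed at a low level, with 6.32 and 6.48 CPM under HMOX1si1 and 4.56 and 5.24 CPM under HMOX1si2, against 8.32 and 8.04 CPM under siControl. The 3 groups did not overlap, and the order from low to high was HMOX1si2, HMOX1si1, siControl. The difference between HMOX1si2 and HMOX1si1 was not called (log2 difference −0.38, edgeR adjusted p = 0.192). NUAK2 fell with HMOX1si2, where its log2 fold change was −0.74 (SE 0.14; edgeR adjusted p = 0.0400), and on average, where it was −0.55 (SE 0.12; edgeR adjusted p = 0.0419). With HMOX1si1 the log2 difference was −0.35 (95% interval −0.69 to −0.02, edgeR adjusted p = 0.145). The call on average was lost in each fit without 1 library except that without HMOX1si2 replicate 2 (log2 fold change −0.57 to −0.50, adjusted p 0.0866 to 0.188 in the other 5), and the call with HMOX1si2 was lost in all 6 (−0.84 to −0.64, adjusted p 0.0662 to 0.167). With library totals as the scaling the adjusted p values were 0.0567 on average and 0.0524 with HMOX1si2.

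AMOTL2 (chromosome 3) encodes an angiomotin-family protein that binds YAP and keeps it from the nucleus, and is a widely used YAP target. It was at 110.3 and 118 CPM with HMOX1si1 and at 146 and 119 CPM with HMOX1si2, against 112 and 100.2 CPM with siControl. HMOX1si1 overlapped the controls and HMOX1si2 lay above them, in 1 library by little. AMOTL2 was not called, with an average log2 difference of 0.21 (95% interval −0.07 to 0.49, edgeR adjusted p = 0.259).

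ANKRD1 (chromosome 10) encodes an ankyrin repeat protein first studied in heart muscle, and its transcript is among the most used readouts of YAP activity. It was scarce in AsPC-1, with 18 and 24 counts under HMOX1si1 and 26 and 32 counts under HMOX1si2, against 35 and 38 counts under siControl. All 4 knockdown libraries were below both controls, at 0.429 to 0.707 CPM against 0.856 and 0.967 CPM. The average log2 difference of −0.65 had a 95% interval of −1.33 to 0.03 and was not called (edgeR adjusted p = 0.174).

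AJUBA (chromosome 14) encodes a LIM-domain adaptor that binds LATS kinases and can limit their activity. Its levels were 42.1 and 27.5 CPM with HMOX1si1 and 67.5 and 34.1 CPM with HMOX1si2, against 90.9 and 37.7 CPM with siControl. Replicate 1 was the higher library in every group, the gap between the control replicates was 2.41-fold, and 96.6% of all genes tested had a smaller gap there. AJUBA was not called: the average log2 difference was −0.61 (95% interval −1.63 to 0.41, edgeR adjusted p = 0.363) and became 0.15 without siControl replicate 1. It shares exonic bases with the gene model AL132780.3, which was at 0 counts in all 6 libraries.

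**Figure D2:**
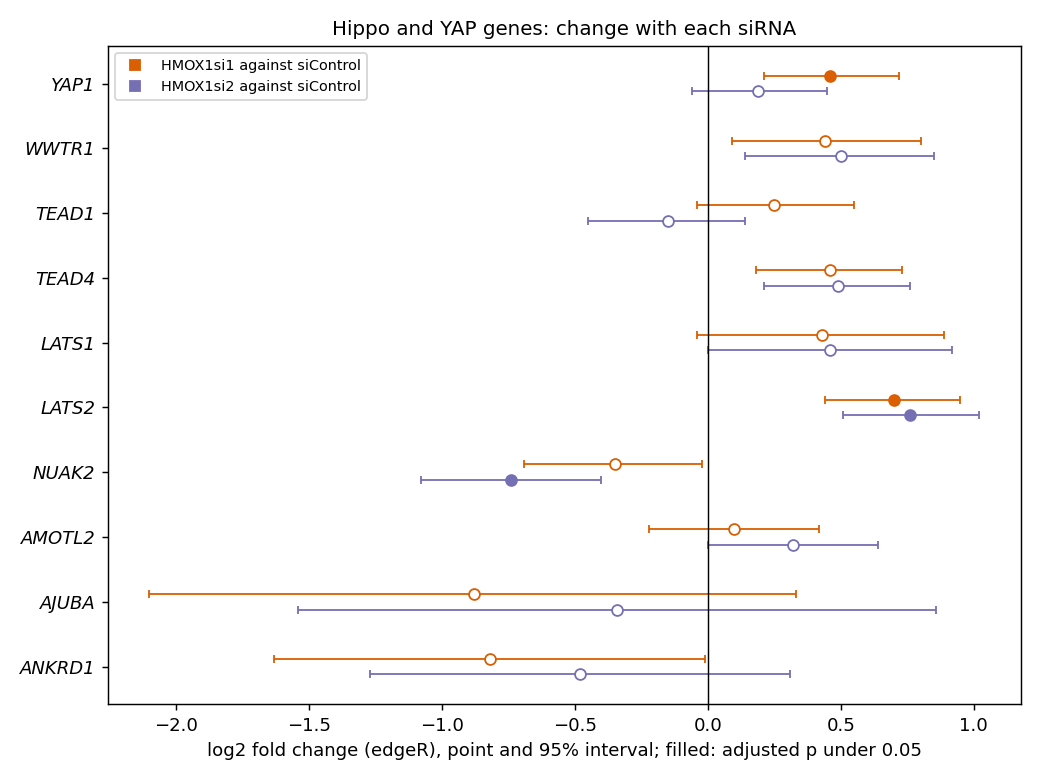
Log2 fold change (x axis) of the 10 genes (down the y axis) with HMOX1si1 (orange) and with HMOX1si2 (purple), each against siControl; points are edgeR estimates, whiskers 95% intervals, and filled points have an adjusted p under 0.05. LATS2 is filled for both siRNAs, at 0.70 and 0.76, and AJUBA has the widest interval of the 10 with each siRNA.

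Because GGAATG is the core of the sequence that TEAD factors bind, the promoter windows of the set were searched for it on both strands. AP-1 sites often accompany TEAD sites at YAP targets, so the pattern TGANTCA was searched too, where N is any base. As a pattern it reads the same on both strands. It takes in AP-1 sites but accepts any central base, so a match need not be an AP-1 site. The windows ran from 250 bases before to 50 after each start site in RefSeq (GRCh38.p14), and 8 of the 10 genes had at least 1 window. TEAD1 and TEAD4 had none, so their promoters were not searched. GGAATG was found for 6 of these 8 genes. By window it was in 6 of 12, beside 14.0% of all 35116 windows, and no share by gene was computed over all genes. The set was listed as pathway members and YAP targets, so its share of windows is not a result about it. TGANTCA was found for 2 of the 8 genes (2 of 12 windows) and in 7.71% of all windows. A match is only a run of letters and does not show binding. The stretches that follow are those of the called genes with a match and of ANKRD1, which held both motifs; capitals mark the matches, and each is written 5′ to 3′ on the strand of the gene.
NUAK2, chr1:205321746-205321995, minus strand, the 250 bases before the start: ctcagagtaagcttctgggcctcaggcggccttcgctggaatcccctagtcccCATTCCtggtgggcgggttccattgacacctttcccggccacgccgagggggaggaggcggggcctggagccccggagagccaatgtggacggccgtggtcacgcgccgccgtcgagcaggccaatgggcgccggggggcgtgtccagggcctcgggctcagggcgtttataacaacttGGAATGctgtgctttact
ANKRD1, chr10:90921088-90921337, minus strand, the 250 bases before the start: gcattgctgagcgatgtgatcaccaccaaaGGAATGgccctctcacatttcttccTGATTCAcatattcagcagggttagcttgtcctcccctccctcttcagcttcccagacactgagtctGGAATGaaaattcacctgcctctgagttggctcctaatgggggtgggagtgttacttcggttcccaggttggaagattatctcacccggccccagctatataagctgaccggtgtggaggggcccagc
YAP1, chr11:102110273-102110302, plus strand: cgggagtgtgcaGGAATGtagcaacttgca
LATS2, chr13:21061560-21061589, minus strand: cgtgacgcccgtGGAATGccaacaatgtag

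In NUAK2 the TEAD letters began at −197, on the other strand, and at −18, counting bases from the start site. In ANKRD1 they began at −220 and −128, with the TGANTCA match between them, at −195, reading TGATTCA. In YAP1 they began at −162, and in LATS2 at base 10 after the start. AMOTL2 and AJUBA held GGAATG or its complement in 1 of 2 windows each. Genes with the letters moved in both directions: LATS2 rose with each siRNA, YAP1 rose with HMOX1si1, and NUAK2 fell with HMOX1si2 and on average.

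Per kb of exonic length (the union of GENCODE 29 exons, which may not be the annotation used for counting), YAP1 was the most abundant of the 10 transcripts in siControl cells, at 27.1 ± 2.97 CPM per kb (SD, n = 2). AMOTL2 followed at 17.8 ± 1.44, then AJUBA at 10.8 ± 6.30, TEAD1 at 10.7 ± 1.59, TEAD4 at 9.14 ± 0.331, WWTR1 at 8.0 ± 1.05, LATS2 at 5.30 ± 0.416, LATS1 at 3.69 ± 1.0, NUAK2 at 2.38 ± 0.0563 and ANKRD1 at 0.461 ± 0.0397 CPM per kb (SD, n = 2). Neighbours in this order did not overlap between their control libraries, except AJUBA and TEAD1. The control libraries of AJUBA, at 15.2 and 6.3 CPM per kb, also spanned those of TEAD4 and WWTR1, so its place is unresolved. With HMOX1si1, YAP1 reached 37.3 ± 0.648 and LATS2 8.58 ± 0.406 CPM per kb (SD, n = 2). With HMOX1si2 these were 31.0 ± 0.0646 and 9.0 ± 0.337 CPM per kb (SD, n = 2). YAP1 exceeded WWTR1 per exonic length 3.80 and 3.13 times with HMOX1si1 and 2.57 and 2.97 times with HMOX1si2, against 3.34 and 3.45 times with siControl. In the remaining TEAD genes, TEAD3 had 9.81 ± 0.0107 and TEAD2 6.09 ± 0.856 CPM per kb in siControl cells (SD, n = 2), and neither was called in any comparison.

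**Figure D3:**
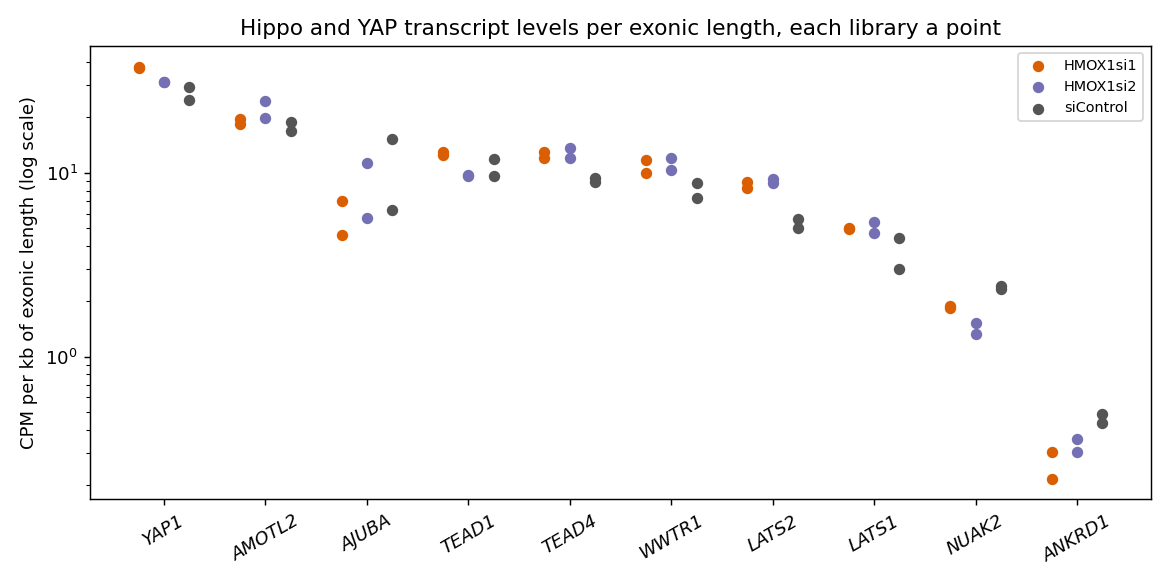
Level of the 10 transcripts in CPM per kb of exonic length (y axis, log scale) in each library, ordered by the mean in siControl; each point is 1 library, coloured by group. YAP1 stands highest at 27.1 CPM per kb in siControl and ANKRD1 lowest at 0.461.

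The next comparison asks whether HMOX1si2 and HMOX1si1 differed, since HMOX1 was lower with HMOX1si2. Between them edgeR called 0 of the 10 genes, against 3.62% of all genes tested, with 3 of the 10 at an unadjusted p under 0.05 and 1 called by DESeq2, TEAD1. Those 3 were TEAD1, YAP1 (log2 difference of HMOX1si2 minus HMOX1si1 −0.27, 95% interval −0.52 to −0.01) and NUAK2 (−0.38, −0.72 to −0.05). For LATS2 the interval of the difference was −0.18 to 0.32, for TEAD4 −0.24 to 0.30 and for WWTR1 −0.30 to 0.41. AJUBA and ANKRD1 were less precise, with intervals of −0.66 to 1.76 and −0.48 to 1.17.

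Of 41 further genes of the Hippo pathway, 38 passed the filter on low counts; AMOT, VGLL1 and FAT4 did not. On average edgeR called 3 of the 38, all higher, with 10 at an unadjusted p under 0.05. With HMOX1si1 3 rose and 2 fell, and with HMOX1si2 3 were called, all higher. The median log2 fold change of the 38 was 0.16 with HMOX1si1, 0.13 with HMOX1si2 and 0.16 on average. The 7.89% called on average and with HMOX1si2, and the 13.2% called with HMOX1si1, were near the shares of all genes tested (10.1%, 5.73% and 10.0%). Between HMOX1si2 and HMOX1si1 4 of the 38 were called, or 10.5%, against 3.62% of all genes tested. This list, too, was chosen with earlier results of these data known.

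Among them VGLL4, which competes with YAP for TEAD, had 54.2 and 52.5 CPM with HMOX1si1 and 85.0 and 89.5 CPM with HMOX1si2, against 36.2 and 36.7 CPM with siControl. It rose with HMOX1si1 (log2 fold change 0.55, edgeR adjusted p = 0.0209) and more with HMOX1si2 (1.26, SE 0.09, edgeR adjusted p = 0.00951). VGLL4 shares exonic bases with ATG7, so its counts are uncertain. MAP4K4, a kinase that can activate LATS in parallel to MST1 and MST2, had 507 and 559.8 CPM with HMOX1si1 and 447 and 401 CPM with HMOX1si2, against 292 and 227 CPM with siControl. It rose with HMOX1si1 (log2 fold change 1.04, edgeR adjusted p = 0.0152) and HMOX1si2 (0.71, edgeR adjusted p = 0.0489). FRMD6, an upstream FERM-domain protein, was scarce, with 6.42 and 6.63 CPM under HMOX1si1 and 4.49 and 4.58 CPM under HMOX1si2, against 3.34 and 2.46 CPM under siControl. It rose with HMOX1si1 (log2 fold change 1.17, edgeR adjusted p = 0.0209). VGLL4, MAP4K4 and FRMD6 made up the calls on average, at 0.90, 0.87 and 0.91 on the log2 scale. Of 31 edgeR calls in the 4 comparisons over both wider lists, 27 were lost without siControl replicate 1, 29 without siControl replicate 2, 21 and 24 without HMOX1si1 replicate 1 or 2, and 13 and 7 without HMOX1si2 replicate 1 or 2; none changed sign.

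CRB3 and PATJ, of the apical polarity complex, differed between the siRNAs. CRB3, the epithelial Crumbs protein, had 8.30 and 6.83 CPM with HMOX1si1 and 13.6 and 16.1 CPM with HMOX1si2, against 14.8 and 14.2 CPM with siControl. It fell with HMOX1si1 (log2 fold change −0.94, edgeR adjusted p = 0.0231) and differed between HMOX1si2 and HMOX1si1 (0.97, edgeR adjusted p = 0.0336), but it shares exonic bases with DENND1C. PATJ, which joins Crumbs proteins to the junction, had 29.3 and 31.7 CPM with HMOX1si1 and 60.0 and 56.6 CPM with HMOX1si2, against 42.7 and 35.7 CPM with siControl. It rose with HMOX1si2 (log2 fold change 0.57, edgeR adjusted p = 0.0496) and differed between HMOX1si2 and HMOX1si1 (0.94, edgeR adjusted p = 0.0180). PALS1, the linker between both, showed a log2 difference of 0.19 on average (edgeR adjusted p = 0.156). MOB1A, the LATS cofactor, fell with HMOX1si1 (131 and 135 CPM, against 176 and 170 CPM with siControl; log2 fold change −0.38, edgeR adjusted p = 0.0457). WWC3, a relative of KIBRA, differed between HMOX1si2 (43.8 and 41.4 CPM) and HMOX1si1 (62.2 and 66.6 CPM; −0.60, edgeR adjusted p = 0.0421). The genes nearest to a call on average among the rest were SCRIB (0.25), SLMAP (0.30) and FAT1 (0.37), with edgeR adjusted p of 0.112 to 0.136.

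Of 19 further YAP/TEAD target genes 17 passed the filter, and FOXF2 and RBMS3 did not. On average 3 rose and 1 fell, or 23.5% of the 17, against 10.1% of all genes tested. With HMOX1si1 5 rose and 1 fell, or 35.3%, against 10.0% of all genes tested. With HMOX1si2 3 were called, all higher, or 17.6%, against 5.73%, and between the siRNAs 3 differed, or 17.6%, against 3.62%. The median log2 fold change was 0.18 with HMOX1si1, −0.04 with HMOX1si2 and 0.17 on average, beside 0.00 for all genes tested. This list was chosen with earlier results of these data known. Its shares and medians therefore cannot show that YAP targets changed more than other genes.

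IGFBP3, a secreted binder of insulin-like growth factors, changed most, with 2534 and 2847 CPM under HMOX1si1 and 1610.3 and 2156 CPM under HMOX1si2, against 880.4 and 824 CPM under siControl. It rose 3.16-fold with HMOX1si1 (edgeR adjusted p = 0.00673) and 2.21-fold with HMOX1si2 (edgeR adjusted p = 0.0228). THBS1, thrombospondin-1, which shares exonic bases with FSIP1, was also called with both, at log2 fold changes of 0.97 and 0.86. CCDC80, a secreted matrix protein, rose with HMOX1si1 (1.20, edgeR adjusted p = 0.0323) and on average. Its HMOX1si1 libraries were at 33.0 and 51.6 CPM, against 16.9 and 20.1 CPM with siControl. That 1.57-fold gap between the HMOX1si1 replicates was larger than in 91.0% of all genes tested. BIRC5, the mitotic regulator survivin, fell with HMOX1si1 (−0.55, edgeR adjusted p = 0.0434) and on average (−0.51, edgeR adjusted p = 0.0366).

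CCN1 and CCN2 are the YAP targets most often used as readouts. CCN1, the matricellular protein CYR61, had 114 and 132 CPM with HMOX1si1 and 58.3 and 51.2 CPM with HMOX1si2, against 76.1 and 80.3 CPM with siControl. The 3 groups did not overlap and siControl lay in the middle. CCN1 rose with HMOX1si1 (log2 fold change 0.65, edgeR adjusted p = 0.0272), its log2 difference with HMOX1si2 was −0.52 (edgeR adjusted p = 0.0613), and the difference between HMOX1si2 and HMOX1si1 was −1.17 (SE 0.12, edgeR adjusted p = 0.0115). CCN2, its relative CTGF, had 12.5 and 12.9 CPM with HMOX1si1 and 15.8 and 13.3 CPM with HMOX1si2, against 11.5 and 10.9 CPM with siControl, and was not called (0.28 on average, edgeR adjusted p = 0.171).

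NT5E, an ectoenzyme that makes adenosine, rose with HMOX1si1 (0.59, edgeR adjusted p = 0.0291) and was lower with HMOX1si2 than with HMOX1si1 (−0.67, edgeR adjusted p = 0.0331). TGFB2, a TGF-beta ligand, went the other way, with 43.2 and 49.8 CPM under HMOX1si1 and 104 and 81.5 CPM under HMOX1si2, against 58.7 and 55.0 CPM under siControl. It rose with HMOX1si2 (0.70, edgeR adjusted p = 0.0485) and was higher there than with HMOX1si1 (0.99, edgeR adjusted p = 0.0253). The genes nearest to a call on average among the others were F3, tissue factor (−0.28), ARHGEF17 (0.27) and DOCK5 (−0.28), with edgeR adjusted p of 0.0957 to 0.171. With HMOX1si1 and HMOX1si2 in turn, the log2 difference was −0.32 and −0.23 for F3. It was −0.01 and 0.55 for ARHGEF17, and 0.01 and −0.56 for DOCK5.

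**Figure D4:**
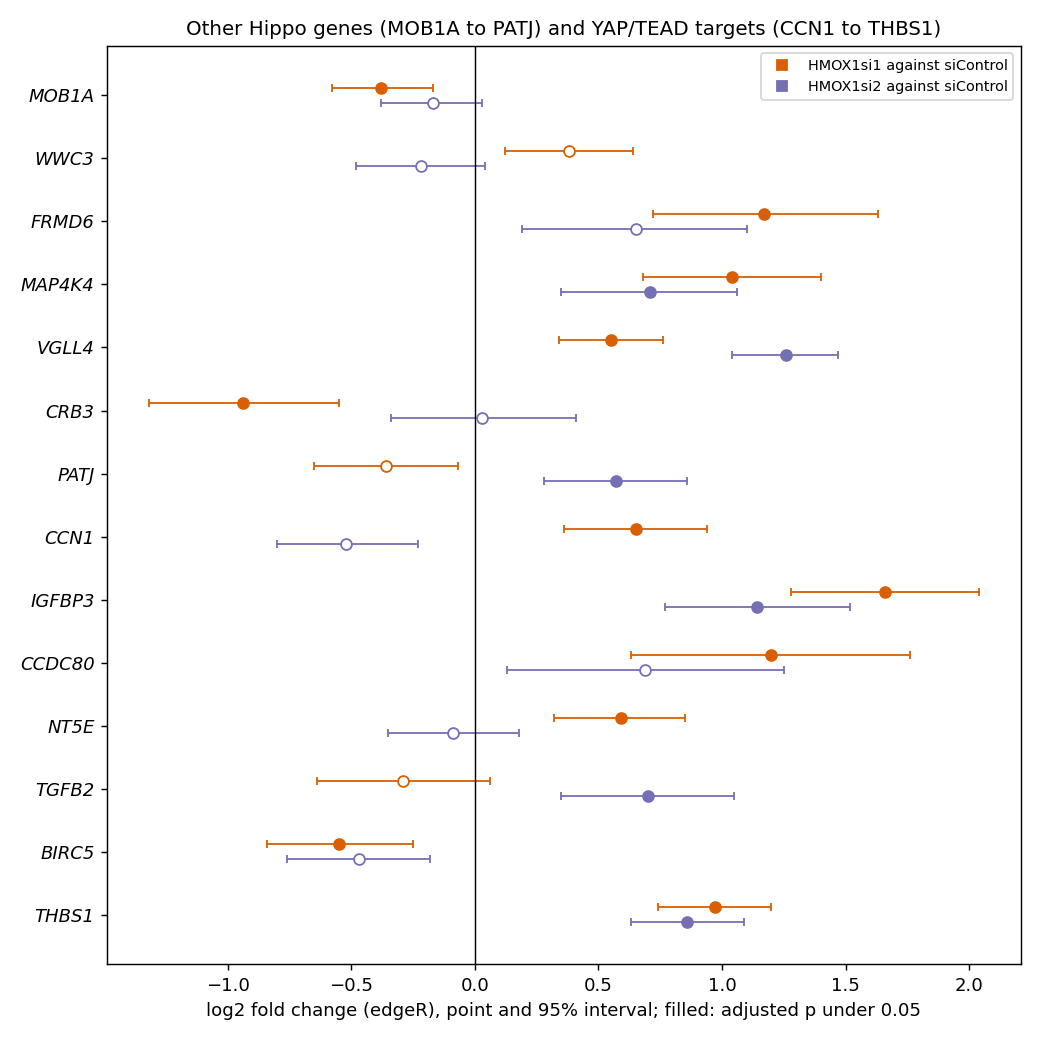
Log2 fold change (x axis) with HMOX1si1 (orange) and HMOX1si2 (purple), each against siControl, for the 7 further Hippo pathway genes (MOB1A to PATJ) and the 7 further YAP/TEAD target genes (CCN1 to THBS1) called in any comparison; whiskers are 95% intervals and filled points have an adjusted p under 0.05. IGFBP3 lies highest at 1.66 with HMOX1si1, and the points of CCN1 lie on opposite sides of 0.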

How the data were processed

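mRNA libraries of 6 AsPC-1 samples were analysed from the authors' table of 20263 genes. The deposited values were read as estimates, that is expected counts (estimated counts per gene, with no normalization). No label states the unit, and the values are whole numbers, which plain read counts would also be. Gaps between replicates do not settle the unit. Among genes that share exonic bases with another, the siControl replicates differed 2.41-fold for AJUBA, but 1.01-fold for VGLL4 and 1.11-fold for THBS1. For STK4, with no such overlap, they differed 2.69-fold. How reads were aligned and counted was not given in any source used here. The genome builds listed in the submitters' processing notes, GRCm38 and mm10, are of mouse, although the table holds human gene identifiers, and which build served for counting is unknown. Expected counts were rounded, which changed nothing.

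Genes were kept by filterByExpr, TMM-scaled and modelled with a mean for each group, all 6 libraries in 1 fit (R 4.3.3, edgeR 4.0.16 quasi-likelihood test; DESeq2 1.42.0 as an alternative), with Benjamini-Hochberg adjustment over 13769 genes. Standard errors are the absolute log2 fold change over the square root of F, and 95% intervals use 6.11 degrees of freedom. The main fit was run on simulated counts for the average of both siRNAs alone, with the same dispersion for every gene. The other comparisons, DESeq2 and the fits with a library left out were not simulated. The simulation therefore does not show how the steps perform on these libraries. The libraries of a group differed beyond sampling noise (chi-square divided by its degrees of freedom was 49.0 for HMOX1si1, 85.2 for HMOX1si2 and 38.5 for siControl). Symbols and exons are from GENCODE 29.

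The 10 genes and both wider lists were chosen with earlier results of these data known. A gene of the target list is not reported here and was left out of its counts. Named from the wider lists are every gene called in any comparison and the 4 others per list with the smallest p on average. Alternatives were other scalings, no filter, DESeq2, a replicate block and leaving out each library.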

Additional observations from a re-analysis of the deposited data

Results flagged for a closer look

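HMOX1 and 7 genes of the wider lists stood out because the test of HMOX1si2 against HMOX1si1 itself passed (edgeR adjusted p from 0.0115 to 0.0421), and none of the 10 Hippo and YAP genes did. The log2 difference of HMOX1si2 minus HMOX1si1 was −1.10 for HMOX1, −1.17 for CCN1, −0.67 for NT5E and −0.60 for WWC3, all lower with HMOX1si2. It was 0.99 for TGFB2, 0.97 for CRB3, 0.94 for PATJ and 0.71 for VGLL4, all higher with HMOX1si2. Each of these 8 calls was lost in at least 1 of the fits without 1 library.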

How the results depend on the processing

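Scaling by DESeq2 size factors or no filter on low counts changed no call of the 10 genes. Library totals ended the calls of YAP1 with HMOX1si1 and of NUAK2 with HMOX1si2 and on average, leaving 1 gene called with HMOX1si2, and added TEAD4 with HMOX1si1. DESeq2 called more: 2639 of all genes with HMOX1si1, 1890 with HMOX1si2, 2674 on average and 1411 between the siRNAs, and of the 10 genes 3 with HMOX1si1, 4 with HMOX1si2, 5 on average and 1 between the siRNAs. Leaving out a library gave 0 to 1492 genes with HMOX1si1 (of the 10 genes, 0 to 1), 0 to 362 with HMOX1si2 (0 to 1), 0 to 1594 on average (0 to 3) and 19 to 204 between the siRNAs (0 of the 10, with 0 to 3 at an unadjusted p under 0.05 by edgeR); the lone library left was assumed to vary like the others. Signs that turned in these fits belonged to uncalled differences. Between the siRNAs the log2 difference ranged from −0.06 to 0.18 for WWTR1 (−0.06 without replicate 1 of either siRNA), from −0.06 to 0.11 for TEAD4 (also −0.02), from −0.07 to 0.13 for LATS1 and from −0.03 to 0.95 for AJUBA. With HMOX1si2 it ranged from −0.29 to 0.00 for TEAD1 and from −0.91 to 0.43 for AJUBA (also 0.07). On average it ranged from −0.09 to 0.20 for TEAD1 and from −1.11 to 0.15 for AJUBA. The causes were not tested.

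Over all genes tested, same-numbered libraries did not deviate together (correlations of 0.00791, 0.0272 and −0.153). Such a correlation over all genes cannot decide whether they were paired, and pairing in some genes was not tested. With the replicate block, edgeR called 481 genes with HMOX1si1, 45 with HMOX1si2, 255 on average and 87 between the siRNAs, and of the 10 genes 1, 0, 1 and 0 (with 5 and 2 of the 10 at an unadjusted p under 0.05 for HMOX1si2 and between the siRNAs), each time LATS2. The block ended 22 of the 31 calls of the wider lists. The lowest counts of the 10 genes were those of ANKRD1, at 18 to 38 a library.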

Other observations

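STK4, which encodes the MST1 kinase at the head of the pathway, had 5005 and 5020 counts with HMOX1si1 and 4889 and 5042 counts with HMOX1si2, against 1380 and 4550 counts with siControl. The control replicates thus differed 2.69-fold in CPM, a larger gap than in 97.3% of all genes tested, while the replicates of both knockdown groups lay within 1.05-fold. The average log2 difference of STK4 was 0.73 and was not called (edgeR adjusted p = 0.225). STK4 was singled out after its values were seen. Its relative STK3, which encodes MST2, showed a log2 difference of −0.10 (edgeR adjusted p = 0.510).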
